A study of Bos taurus with 6 samples.

Results

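The nuclear genes of respiratory complexes II, III, IV and V, with the assembly factors that share their names, were examined in bovine blastocysts of low and high cryosurvival. Members were chosen by gene name alone, as the rows whose name begins with SDHA, SDHB, SDHC, SDHD, UQCR, ATP5 or COX and a digit, or is CYC1. The rule took 54 of 9537 genes. They comprise 4 subunits of complex II, 9 of complex III, 12 genes grouped with complex IV, 15 subunits of complex V and 14 assembly or related factors. RNA sequencing had been done on 3 libraries of low and 3 of high cryosurvival, all from blastocysts produced in vitro in SOFaaci culture medium. The groups refer to survival of vitrification, cooling so fast that no ice forms. Low cryosurvival libraries carry the code NV in their titles and high ones the code V, and the labels do not explain the codes. The sources used here do not state the breed, the number of embryos per library, or at which step relative to vitrification the RNA was taken. Separate cultures for the replicate libraries are not recorded, so p-values measure only the spread between these libraries, which may be technical.

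Complexes II, III and IV pass electrons from succinate and from reduced ubiquinone to oxygen, and complexes III and IV pump protons across the inner mitochondrial membrane. Complex V, the ATP synthase, uses that proton gradient to make ATP. Each complex has a few large catalytic or core proteins and, in complexes III to V, many small accessory subunits, all encoded in the nucleus except a handful made inside the mitochondrion, which are not analysed here. Mitochondria of the embryo come from the oocyte, and respiration is known to rise as the blastocyst forms and its trophectoderm pumps ions to fill the cavity.

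Values are CPM, read counts divided by a scaled library size and not by transcript length. They are always given below in the order of libraries 1, 2 and 3 of a group. They were compared with limma on log2(CPM + 1), low minus high, adjusted over all genes by the method of Benjamini and Hochberg. The libraries held 14651477 to 19467022 reads over the table, the fewest in low cryosurvival library 2. Low cryosurvival library 2 also stood apart from the other 5 in the balance between short and long messages. A hand-written list of 51 measured genes with short messenger RNAs, none of them a member, had median log2 deviations from the high mean of -0.37, 0.68 and -0.23 in low cryosurvival, against -0.024, -0.095 and 0.10 in high. The 26 measured genes with long ones had 0.37, -0.70 and 0.19 in low, against 0.0059, -0.042 and -0.011 in high cryosurvival. In both lists low libraries 1 and 3 also lay outside the range of the high libraries, on the opposite side from low library 2. KRT8, the most abundant listed trophectoderm marker, was at 17382, 21785 and 15394 CPM in low cryosurvival, against 17590.0, 19418 and 17629 CPM in high. TFAP2A, the least abundant one measured, was at 26.3, 15.9 and 19.9 CPM in low, against 31.7, 37.9 and 29.4 CPM in high. Of listed markers, 9 of 12 of trophectoderm, 7 of 7 of epiblast and 7 of 8 of hypoblast were measured. Of listed markers of oocytes, sperm and blood, 1 of 6, 1 of 4 and 1 of 4 were measured. The highest of these values was 6.31 CPM (ZP3 in low cryosurvival library 2). Of listed markers of cumulus and granulosa cells, 4 of 7 were measured. The highest expressed of these, HSD3B1, was at 311, 247 and 245 CPM in low cryosurvival, against 260, 305 and 357 CPM in high. Which cells its reads came from was not tested. In whole embryos, fewer cells of a type and less RNA per cell cannot be told apart.

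No transcript of complexes II to V passed the test between low and high cryosurvival embryos over all 6 libraries. Limma called 0 of the 54 members, as it called 0% of all genes. At an unadjusted p below 0.05 the count was 1 member, COX20, against 1142 genes or 12.0% of the table. Voom on recovered reads also called 0 members. The authors' deposited table called 0 members, against 1.20% of all genes. The median log2 difference of the members was -0.026, with 23 higher and 31 lower in low cryosurvival, against a median of 0.00023 over all genes, of which 4772 were higher and 4765 lower. The 3 low libraries lay wholly below the 3 high ones for 2 members, COX20 and the ATP synthase gamma subunit ATP5C1, where 10.6% of all genes did so. They lay wholly above for 0 members, against 10.4% of all genes.

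Beneath that near-zero median the low cryosurvival libraries lay on opposite sides of the high ones. Low library 1 was below all 3 high libraries for 40 of 54 members, where 36.9% of all genes were, and low library 3 for 37, where 35.4% were. Low library 2 was above all 3 high libraries for 44 members, against 41.1% of all genes. The reverse positions were rare among the members: low library 1 was above the high libraries for 3 (all genes 36.7%), low library 3 for 5 (34.7%), and low library 2 below them for 7 (41.3%). For 34 of 54 members, low libraries 1 and 3 were both below and low library 2 above the whole high group, hereafter the main pattern, held by 13.4% of all genes. The median SD between libraries on the log2 scale was 0.52 in low and 0.13 in high cryosurvival for the members, and 0.27 and 0.12 over all genes. The short-message list deviated in the same direction as the members in each low library, and its part in these values was not tested.

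**Figure D1:**
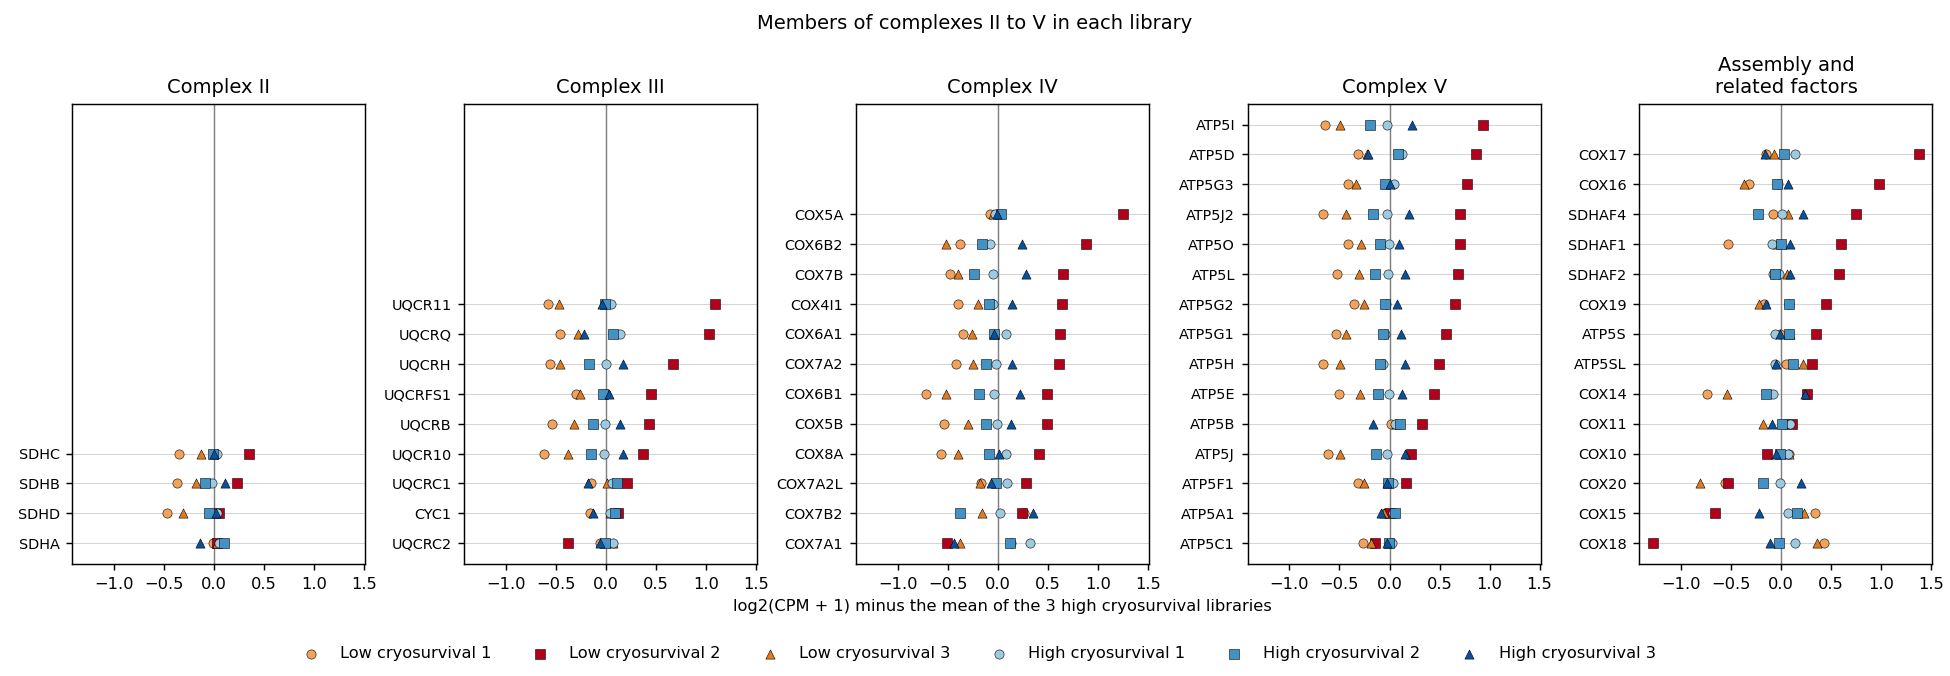
Each row is a member and each point a library, placed by its log2(CPM + 1) minus the mean of the 3 high cryosurvival libraries; within a panel, rows are ordered by low cryosurvival library 2. In most rows low libraries 1 and 3 lie left of the blue high libraries and low library 2 to the right, while SDHA, ATP5A1, COX10 and COX11 have all 6 points close together and COX20 has all 3 low points on the left.

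Complex II, succinate dehydrogenase, takes electrons from succinate in the tricarboxylic acid cycle. SDHA, its flavoprotein and catalytic subunit, was at 606, 625 and 623 CPM in low cryosurvival, against 635, 654 and 554 CPM in high. The 6 values overlapped, and the log2 difference of 0.012 had a 95% interval of -0.27 to 0.30 (limma adjusted p = 0.988). SDHB, the iron-sulfur subunit, was at 151, 228 and 171 CPM in low cryosurvival, against 192, 183 and 210.1 CPM in high. Of the membrane anchors that bind heme and ubiquinone, SDHC was at 114, 186 and 132 CPM in low cryosurvival, against 148, 144 and 145 CPM in high. SDHD was at 154, 221 and 171 CPM in low cryosurvival, against 218, 206 and 216 CPM in high. For SDHB, SDHC and SDHD low libraries 1 and 3 were the lowest of the 6, and low library 2 was the highest. SDHD had the most negative log2 difference of the complex, -0.25 ± 0.16 (SE), and the adjusted p by limma was 0.653. The CPM ratio of SDHD to SDHA was 0.253, 0.353 and 0.275 in low and 0.343, 0.315 and 0.390 in high cryosurvival. The ratio of SDHB to SDHA was 0.249, 0.364 and 0.275 in low and 0.302, 0.280 and 0.379 in high cryosurvival. In both ratios low libraries 1 and 3 were below all high libraries and low library 2 lay among them.

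In complex III, which carries electrons from ubiquinol to cytochrome c, the groups overlapped for all 9 subunits, and how far low library 2 lay from the rest differed between them. CYC1, the cytochrome c1 subunit, was at 565, 682 and 649 CPM in low cryosurvival, against 648, 671 and 574 CPM in high. UQCRC1, a core protein, was at 554, 716 and 623 CPM in low cryosurvival, against 645, 667 and 546 CPM in high. For both the groups overlapped, with log2 differences of 0.0010 (95% interval -0.32 to 0.32) and 0.024 (-0.33 to 0.38), and limma adjusted p values of 0.999 and 0.983. UQCRC2, the other core protein and also named after its values were seen, was at 130.4, 105 and 143 CPM in low cryosurvival, against 143, 135 and 131 CPM in high, so low library 2 was its lowest value (log2 difference -0.12). UQCRQ, a small subunit next to cytochrome b, was at 144, 405 and 163 CPM in low cryosurvival, against 219, 209 and 171 CPM in high. UQCR10, another small subunit, was at 113, 225 and 133 CPM in low cryosurvival, against 172, 156 and 195 CPM in high. These were the most positive and the most negative members of the complex, with log2 differences of 0.098 ± 0.38 and -0.21 ± 0.26 (SE), neither called. UQCR11, named after its values were seen, had the widest spread, at 74.5, 240.5 and 80.5 CPM in low cryosurvival, against 116, 111 and 109 CPM in high. Within a library the ratio of UQCR11 to UQCRC2 was 0.571, 2.30 and 0.563 in low and 0.813, 0.824 and 0.831 in high cryosurvival. The remaining subunits, UQCRFS1 (the Rieske iron-sulfur protein), UQCRB and UQCRH, had log2 differences from -0.14 to -0.037, and in each low libraries 1 and 3 were below and low library 2 above the 3 high libraries.

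Complex IV, cytochrome c oxidase, reduces oxygen to water, and its nuclear subunits surround a core made in the mitochondrion. COX4I1, the ubiquitous form of the subunit through which ATP regulates the enzyme, was at 712, 1469 and 819 CPM in low cryosurvival, against 905, 881 and 1035 CPM in high. COX7A2, the ubiquitous isoform of a small membrane subunit, was at 375, 764 and 419.5 CPM in low cryosurvival, against 493, 459.6 and 550.0 CPM in high. Both followed the main pattern, with low libraries 1 and 3 the lowest and low library 2 the highest, and limma log2 differences of 0.019 and -0.017 (adjusted p = 0.990 and 0.990). COX5A, an accessory subunit that faces the mitochondrial matrix, was at 213, 538 and 218 CPM in low cryosurvival, against 221, 229.8 and 224 CPM in high, so low library 2 was 2.39 times the high mean, while low libraries 1 and 3 were slightly below all high ones. Its log2 difference of 0.38 ± 0.35 (SE) was the most positive of the complex (adjusted p = 0.793). The CPM ratio of COX5A to its neighbour COX5B, a ratio chosen after the values were seen, was 0.611, 0.758 and 0.531 in low and 0.440, 0.495 and 0.405 in high cryosurvival. The low libraries were above all high libraries in this ratio, where 10.4% of all genes taken singly lay wholly above. Among the other ratios computed, those of COX5A to COX4I1, COX17 to COX14 and ATP5B to ATP5A1 also lay wholly above. The remaining ratios overlapped between the groups. How often ratios of further gene pairs separate in this way was not counted, and a share of single genes is an unlike measure.

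Some complex IV subunits have isoforms of restricted expression. COX6B1, the ubiquitous form of the subunit that helps to join the enzyme into dimers, was at 165, 382 and 189.5 CPM in low cryosurvival, against 263, 238 and 317 CPM in high. COX6B2, known as a testis isoform, was measured too, at 6.94, 17.9 and 6.18 CPM in low cryosurvival, against 8.74, 8.23 and 11.1 CPM in high. Both had low libraries 1 and 3 lowest and low library 2 highest, and their log2 differences were -0.24 and -0.0055, with neither called. COX7B, a small subunit that spans the membrane, was at 111, 246 and 118 CPM in low cryosurvival, against 151, 131 and 190.0 CPM in high. Its testis isoform COX7B2 was at 5.79, 5.71 and 4.08 CPM in low cryosurvival, against 4.76, 3.36 and 6.21 CPM in high, which corresponds to 116, 76 and 78 reads in low and 85, 64 and 112 reads in high cryosurvival. COX7B followed the main pattern, while COX7B2 overlapped between the groups in every low library. COX7A1, the heart and muscle isoform, was at 3.69, 2.03 and 2.30 CPM in low cryosurvival, against 4.37, 3.67 and 2.16 CPM in high, from 74, 27 and 44 reads in low and 78, 70 and 39 reads in high cryosurvival. It had the most negative log2 difference of the complex, -0.25 ± 0.25 (SE, limma adjusted p = 0.813), but its groups overlapped. COX7A2L, a related protein that links complexes III and IV into supercomplexes, was at 168, 229 and 167 CPM in low cryosurvival, against 201, 186 and 180.0 CPM in high. It followed the main pattern with a smaller deviation in low library 2 than COX7A2, and its log2 difference was -0.021. The other subunits taken by the rule, COX5B, COX6A1 and COX8A, had log2 differences between -0.18 and 0.0021. No row was named COX6C or COX7C, so the nuclear subunits of complex IV are not covered in full. Small respiratory subunits have processed pseudogenes in mammalian genomes, and the sources used here do not state how reads shared with such copies or with overlapping genes were counted, so their levels are uncertain.

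In complex V the alpha, beta and gamma subunits of the catalytic head overlapped or lay apart from the main pattern, which all the other 12 subunits followed. ATP5A1 (current symbol ATP5F1A), the alpha subunit, was at 1583, 1647 and 1580.4 CPM in low cryosurvival, against 1683, 1695 and 1538 CPM in high. ATP5B (ATP5F1B), the catalytic beta subunit, was at 1273, 1586 and 1324 CPM in low cryosurvival, against 1313, 1359 and 1126 CPM in high. The alpha values overlapped in every library, with a log2 difference of -0.030 (95% interval -0.30 to 0.24, adjusted p = 0.963 by limma). The beta subunit had the most positive difference of the complex, 0.14 ± 0.14 (SE, adjusted p = 0.826), with low library 2 the highest of the 6. ATP5C1 (ATP5F1C), the gamma subunit that turns inside the head, named after its values were seen, was at 442, 478 and 467 CPM in low cryosurvival, against 541, 528 and 522 CPM in high. Its 3 low libraries were all below the 3 high ones, and it averaged 462 ± 18.6 CPM in the low and 530.2 ± 9.75 CPM in the high group (SD, n = 3 each). The log2 difference was -0.20 ± 0.11 (SE), and limma gave an adjusted p of 0.577.

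The c-ring that rotates in the membrane is encoded by 3 genes whose mature proteins are known to be identical. ATP5G1 (ATP5MC1) was at 464, 999 and 499 CPM in low cryosurvival, against 651, 645 and 727 CPM in high. ATP5G2 (ATP5MC2) was at 252, 506 and 269.9 CPM in low cryosurvival, against 315, 313 and 339 CPM in high. ATP5G3 (ATP5MC3) was at 469, 1079 and 496 CPM in low cryosurvival, against 649, 609 and 628 CPM in high. The 3 genes kept step with each other: low libraries 1 and 3 were below and low library 2 above all high libraries in each. Their log2 differences were -0.13, 0.014 and 0.0063 (limma adjusted p = 0.930, 0.991 and 0.996). The CPM ratio of ATP5G2 to ATP5G3 was 0.536, 0.469 and 0.544 in low and 0.485, 0.514 and 0.540 in high cryosurvival. The ratio of ATP5G3 to the beta subunit ATP5B was 0.369, 0.680 and 0.375 in low and 0.494, 0.448 and 0.558 in high cryosurvival, with low library 2 above and low libraries 1 and 3 below all high libraries. ATP5J (ATP5PF), coupling factor 6 of the stalk, had the most negative difference of the complex and was at 174, 310.0 and 189 CPM in low cryosurvival, against 262, 244 and 297 CPM in high. Its log2 difference was -0.30 ± 0.23 (SE, adjusted p = 0.735 by limma), with low library 2 above the high libraries. The remaining 8 subunits, ATP5D, ATP5E, ATP5F1, ATP5H, ATP5I, ATP5J2, ATP5L and ATP5O, had log2 differences from -0.22 to 0.11 with 0 called.

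Factors that build the complexes held both the most negative and the most positive member. COX20, a chaperone of the copper-binding core subunit COX2, was at 26.8, 27.2 and 22.3 CPM in low cryosurvival, against 39.6, 35.0 and 45.7 CPM in high. All 3 low libraries were below all 3 high ones, and it averaged 25.4 ± 2.71 CPM in the low and 40.1 ± 5.38 CPM in the high group (SD, n = 3 each). The log2 difference was -0.63 ± 0.15 (SE), the most negative of all 54 members, and limma gave an adjusted p of 0.192. In the authors' deposited table its adjusted p was 0.123, the lowest of any member there. COX14, which stabilises the newly made core subunit COX1, was at 116, 235 and 134 CPM in low cryosurvival, against 185, 176 and 230.5 CPM in high. Low libraries 1 and 3 were the lowest and low library 2 lay just above the high libraries, and the log2 difference was -0.34 ± 0.27 (SE, adjusted p = 0.737 by limma). COX17, the copper chaperone that feeds the oxidase, was at 73.4, 214 and 77.8 CPM in low cryosurvival, against 89.7, 83.3 and 73.0 CPM in high. Its log2 difference of 0.39 ± 0.40 (SE, adjusted p = 0.822) was the most positive of the members and rested on low library 2, which was 2.61 times the high mean, with the other low libraries among the high ones. Without that library the log2 difference of COX17 was -0.11. ATP5SL (now DMAC2), a factor named for the ATP synthase but known for complex I assembly, was at 115, 137 and 129 CPM in low cryosurvival, against 106, 119.8 and 107 CPM in high, with a log2 difference of 0.19 (adjusted p = 0.667) and low library 1 within the high range.

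For 3 other factors, named after their values were seen, low library 2 was the lowest of the 6. COX18, which inserts part of COX2 into the membrane, was at 5.24, 0.901 and 4.92 CPM in low cryosurvival, against 4.09, 3.57 and 3.27 CPM in high, from 105, 12 and 94 reads in low and 73, 68 and 59 reads in high cryosurvival. COX15, which makes heme A, was at 22.3, 10.7 and 20.5 CPM in low cryosurvival, against 18.3, 19.5 and 14.8 CPM in high. In both of these, low libraries 1 and 3 were above all 3 high libraries and low library 2 was below them. COX10, which acts before COX15 in heme A synthesis, was at 39.2, 33.6 and 39.2 CPM in low cryosurvival, against 38.9, 36.8 and 35.9 CPM in high, with the same order in a narrower range and a log2 difference of 0.0029 (95% interval -0.29 to 0.29). COX16, which helps to assemble the core subunit COX2 and was also named after its values were seen, was at 20.9, 52.8 and 20.1 CPM in low cryosurvival, against 25.7, 25.5 and 27.6 CPM in high, which again was the main pattern. The remaining 6 factors, SDHAF1, SDHAF2, SDHAF4, COX11, COX19 and ATP5S, had log2 differences from -0.011 to 0.25. Within the group of 14 factors the SD over genes of the deviation in low library 2 was 0.70 on the log2 scale, against 0.32 over the subunits of complex V and 0.57 over all genes.

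**Figure D2:**
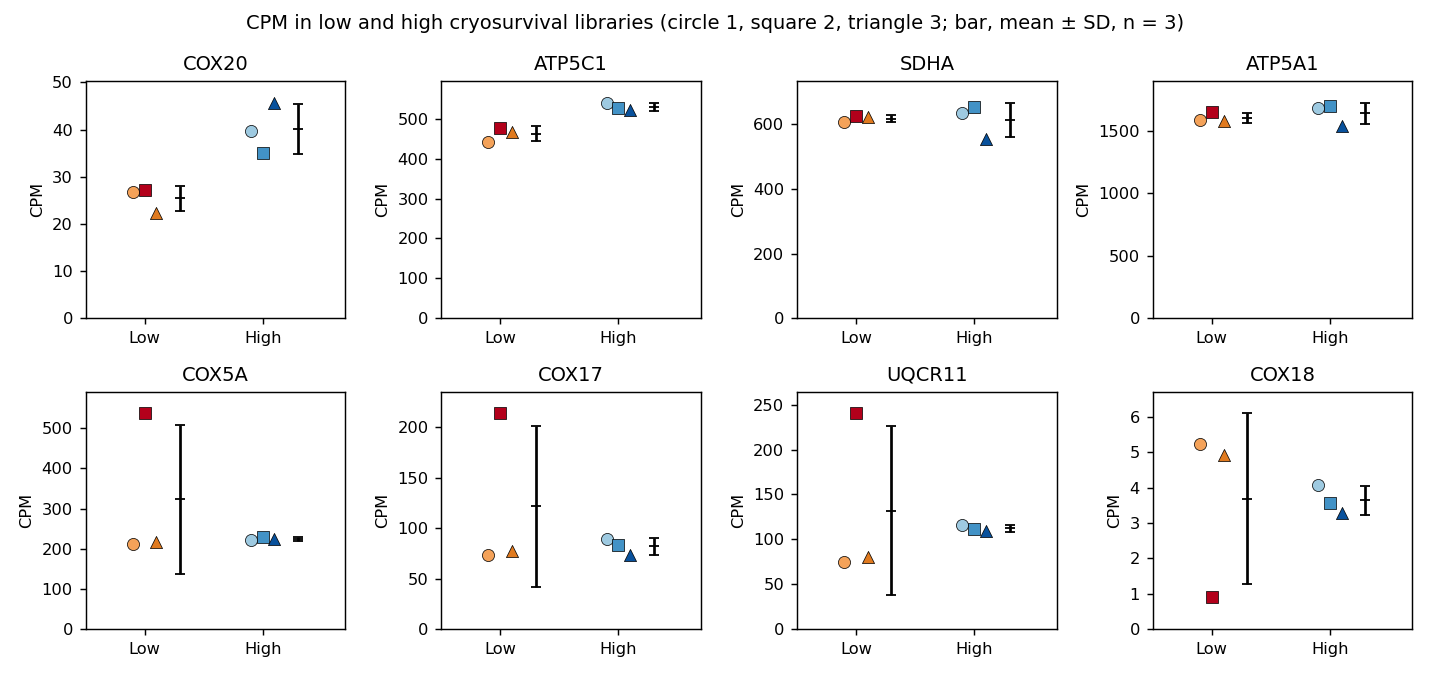
CPM of 8 members in low (orange and red) and high (blue) cryosurvival libraries, with axes from 0 and the mean ± SD of each group beside the points. COX20 and ATP5C1 have no overlap, SDHA and ATP5A1 overlap closely, and COX5A, COX17, UQCR11 and COX18 each have low library 2 (red square) far from the other 5 libraries.

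Complexes II to V deviated in the same direction in each low library, by different amounts. The median log2 deviations from the high mean in low libraries 1, 2 and 3 were -0.36, 0.14 and -0.16 for complex II, -0.46, 0.43 and -0.28 for complex III, -0.39, 0.55 and -0.28 for complex IV and -0.42, 0.57 and -0.30 for complex V. In the high libraries the medians of these 4 complexes stayed between -0.11 and 0.13. The assembly and related factors had -0.079, 0.32 and 0.0092. For each of the 4 complexes the median of low libraries 1 and 3 was below, and that of low library 2 above, the medians of the 3 high libraries. Summed over complex V, the level was 6522, 10595 and 6886 CPM in low cryosurvival, against 8031, 7866 and 7921 CPM in high. These sums are not shares of an equal total, which was highest in low library 2. As group medians of the limma log2 difference, complex II had -0.077, complex III -0.037, complex IV -0.019, complex V -0.065 and the assembly factors 0.013.

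Complex I subunits and factors, which feed the same chain, had a like course. The 46 measured genes whose names begin with NDUF had median deviations of -0.41, 0.57 and -0.26 in low cryosurvival, against -0.0041, -0.074 and 0.061 in high, and a median log2 difference of -0.035 with 0 called by limma. The 81 genes of cytosolic ribosomal proteins, which have no role in respiration, had -0.31, 0.65 and -0.22 in low, against -0.019, -0.10 and 0.12 in high cryosurvival, and a median log2 difference of 0.046. In low library 2 the medians of complexes III to V, complex I, ribosomal proteins and the short-message list all lay between 0.43 and 0.68. No difference between these groups was tested.

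**Figure D3:**
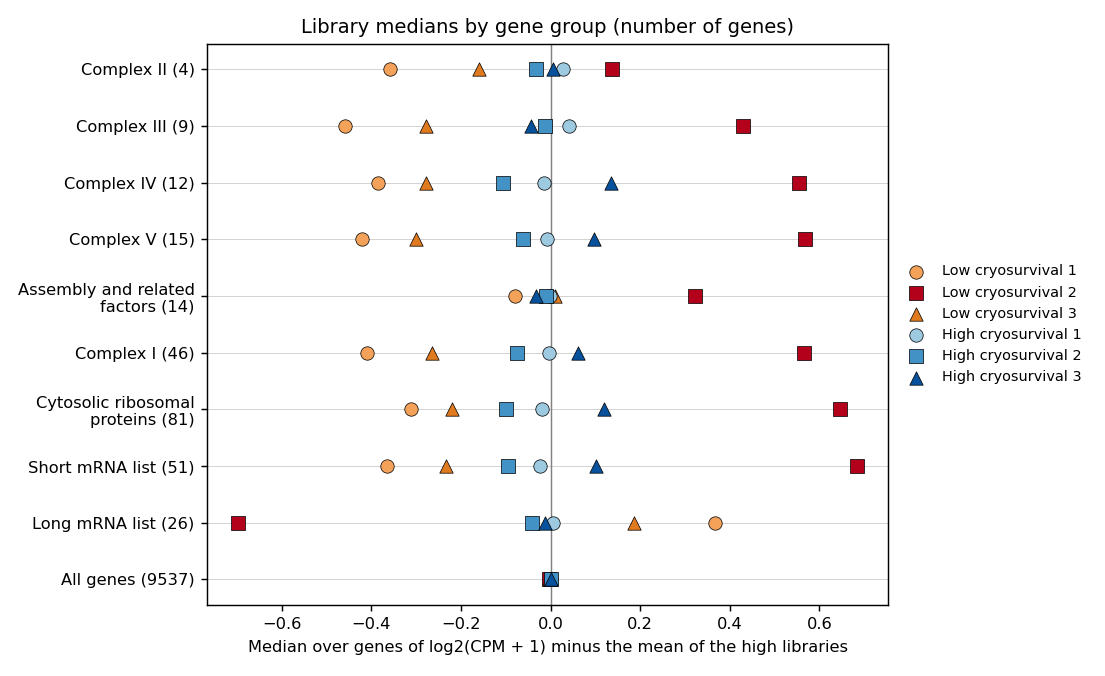
Each point is the median over the genes of a group, in 1 library, of log2(CPM + 1) minus the mean of the high cryosurvival libraries; the number of genes is in parentheses. Low library 2 (red square) lies right of the other libraries in every respiratory group, among ribosomal proteins and in the short-message list, and left of them in the long-message list, where low libraries 1 and 3 lie on the right.

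Of the fits with a library left out, only that without low cryosurvival library 2 called members. Without this library, limma called 14 of 54 members lower in low cryosurvival, where it called 5.48% of all genes lower. It called 0 members higher, where it called 8.15% of all genes higher. With 2 low libraries left, their spread is pooled with that of the high libraries. The 14 members were SDHD in complex II, UQCRH and UQCR11 in complex III, COX6B1 and COX8A in complex IV, ATP5G1, ATP5G3, ATP5H, ATP5I, ATP5J and ATP5J2 in complex V, and COX14, COX16 and COX20 among the assembly factors. Their log2 differences in these 5 libraries ran from -0.68 for COX20 to -0.34 for COX16, and their adjusted p values from 0.0223 for UQCR11 to 0.0482 for COX16. Of these 14, COX20 differed least between the fits, with -0.63 in all 6 libraries and -0.68 in 5 (adjusted p = 0.192 and 0.0326). UQCR11 had a log2 difference of 0.013 with all libraries and of -0.53 without this one. Members not called included the 2 highest of complexes III and V and SDHA: without low library 2 the log2 differences were 0.0045 for SDHA, -0.056 for CYC1, -0.070 for UQCRC1, -0.050 for ATP5A1 and 0.041 for ATP5B, with adjusted p values of 0.982, 0.753, 0.710, 0.725 and 0.815. The 2 highest of complex IV were not called either but lay further from 0, COX4I1 at -0.30 and COX7A2 at -0.33 (limma adjusted p = 0.121 and 0.0890). Over the members 45 of 54 were then lower in low cryosurvival, with a median of -0.29, against -0.0072 over all genes. The short-message list had a median of -0.28 in the same 5 libraries, with 51 of 51 lower and 5 called lower. The long-message list had a median of 0.27 there, with 21 of 26 higher and 8 called higher. The part of message length in the members' values was not tested. Of the 46 complex I genes 43 were lower, with a median of -0.34, and 14 were called lower. Of the 81 ribosomal protein genes 81 were lower, with a median of -0.27, and 0 were called. Of 9 trophectoderm markers 8 were lower in these 5 libraries, 1 of them called (GATA2 -0.46). The summed level of all 9, mostly KRT8 and KRT18, was 30807 and 27668 CPM in low libraries 1 and 3, against 32343, 35791 and 35464 CPM in high. Of 7 hypoblast markers 5 were higher, 2 of them called (COL4A1 0.88 and RSPO3 0.71). The summed level of all 7 was 2992 and 3034 CPM in low libraries 1 and 3, against 2962, 2353 and 2271 CPM in high. Most of that sum was FN1, at 2460 and 2539 CPM in low libraries 1 and 3, against 2550.5, 2009 and 1961 CPM in high. Of 7 epiblast markers 4 were lower, 2 of them called (NANOG -1.06 and DPPA3 -0.69), and 3 were higher, 1 of them called (LIN28A 0.96). The summed level of these 7, mostly POU5F1, was 1003 and 1125 CPM in low libraries 1 and 3, against 1185, 1061 and 1124 CPM in high. NANOG was also called in the authors' deposited table (adjusted p = 0.002). The part of cell type makeup in the members' values was not tested.

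A fit with all 6 libraries and a length index as covariate, the median of the long-message list minus that of the short-message list, gave fewer calls among the members than leaving out low library 2. The index, on the log2 scale, was 0.045, -2.14 and -0.24 in low cryosurvival, against -0.56, -0.56 and -0.77 in high. In this fit limma called 3 members lower, where 5.88% of all genes were called lower, and 0 higher, where 6.88% were. These were COX20, COX14 and ATP5J, with log2 differences of -0.65, -0.41 and -0.35 and adjusted p values of 0.0269, 0.0441 and 0.0421. In this fit the members' share of calls was near the background for the lower direction and below it for the higher direction. The median over the members was -0.080, and -0.17 over complex V.

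**Figure D4:**
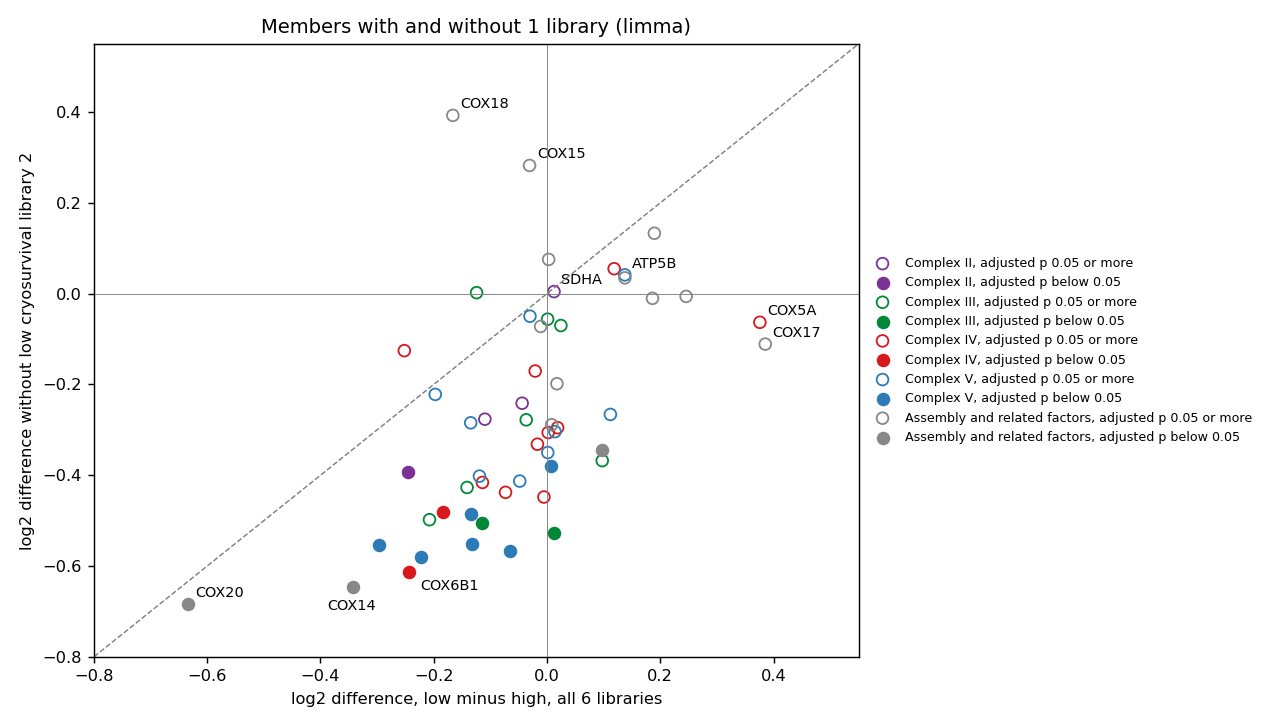
The log2 difference (low minus high cryosurvival, limma) of each member in all 6 libraries is on the x axis and in the 5 libraries without low library 2 on the y axis; filled points have an adjusted p below 0.05 in the 5 libraries and the dashed line marks equal values. Most points lie below the line, COX20 lies close to it at the lower left, and COX18 and COX15 lie far above it.

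Other genes of the same pathway were likewise not called with all 6 libraries. Of further assembly factors of complexes II to V, 21 were measured and 0 passed limma (1 at an unadjusted p below 0.05), with 9 higher and 12 lower in low cryosurvival. The highest expressed was ATPIF1, the inhibitor that keeps ATP synthase from running backwards, at 171, 341 and 188 CPM in low cryosurvival, against 268, 242 and 269 CPM in high. It followed the main pattern, and its log2 difference was -0.22, or -0.53 without low library 2 (adjusted p = 0.0258). Without that library 6 of these 21 factors were called lower and 0 higher, where 5.48% of all genes were called lower and 8.15% higher. Among 9 electron carriers and supercomplex factors 0 passed at either level, and CYCS, the cytochrome c that links complexes III and IV, was at 381, 689 and 448 CPM in low cryosurvival, against 506, 466 and 529 CPM in high.

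Genes that exchange ATP and phosphate across the membrane gave 8 measured genes, 0 called and 0 at an unadjusted p below 0.05, 2 higher and 6 lower in low cryosurvival. SLC25A5, an ADP/ATP carrier and the highest expressed of them, was at 989.8, 1313 and 1165 CPM in low cryosurvival, against 1134, 1039 and 1471 CPM in high, with overlap between the groups. SLC25A4, another carrier, was the one gene of the list called without low library 2, at a log2 difference of -0.36 (adjusted p = 0.0479), 1 of 8 where 5.48% of all genes were called lower. Tricarboxylic acid cycle enzymes, which supply the electrons, were lower in low cryosurvival for 12 of 13 genes, with a median log2 difference of -0.13 and 0 called. CS, citrate synthase, was at 1224, 921 and 1241 CPM in low cryosurvival, against 1265, 1281 and 1230.0 CPM in high. Low library 2 was the lowest value of CS, unlike in most respiratory subunits, and without it 8 of 13 genes of the cycle were lower, with a median of -0.081. Of 15 measured regulators of respiratory and mitochondrial transcription 0 passed, with a median of -0.050. YY1, the highest expressed, was at 157, 144 and 152 CPM in low cryosurvival, against 166, 163 and 156 CPM in high. NRF1, an activator of respiratory genes and the one called without low library 2, was at 14.9, 7.66 and 14.6 CPM in low cryosurvival, against 8.91, 11.9 and 9.60 CPM in high, and its log2 difference was 0.22, or 0.51 without low library 2 (limma adjusted p = 0.853 and 0.0482). That is 1 of 15 called higher without low library 2, a share near the 8.15% of all genes.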

How the data were processed

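Per the labels' protocols, RNA was purified on columns with DNase, had an integrity number of 7.7 or more, and went into NEBNext Ultra II libraries. The submitters' processing notes name, without roles, DESeq 1.12.1, HTSeq 0.5.4p2, SAMtools 0.1.18, TopHat2 2.0.8, Bowtie2 2.1.0 and Cufflinks 2.1.1. The sources used here do not state the build, annotation, strand use or the filter on low genes, so coordinates were left out. The deposited table held CPM per library, the authors' log2 fold (high over low, sign turned here), p-value and adjusted p for 9537 genes. Dividing by the smallest step in a library gave whole reads for 100% of values up to 1000 CPM, to within 0.05 read. All 54 members had a symbol or synonym in the RefSeq gene table of assembly ARS-UCD2.0; 37 carried their current symbol.

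Here log2(CPM + 1) was fitted with limma 3.58.1 in R 4.3.3 over all genes, with no covariate, and tested at an adjusted p of 0.05. The fit was also run on simulated counts, with the same dispersion in every library and changes larger than those of the members. That run therefore does not cover a library that stands apart or differences as small as the members'. An exact permutation test of 3 against 3 cannot go below p = 0.1, so none was made. Alternatives were a pseudocount of 0.5, a mean of at least 5 CPM (passed by 51 of 54 members), equal library medians, the replicate number as a block, voom on recovered reads, the length index, and each library left out. Voom and the length index were added after the values were seen. Values per library are given for the 2 highest members of each complex, its most positive and negative members, members called over all 6 libraries (0), isoform sets and SDHA to SDHD, with others marked where named. The members and lists were chosen with earlier results of these data known. Fold changes on the log2(CPM + 1) scale understate changes of low genes.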

Additional observations from a re-analysis of the deposited data

How the results depend on the processing

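With each library left out in turn, the count of genes called ranged from 0 to 1300 and of members from 0 to 14. Only leaving out low cryosurvival library 2 gave calls. The count of genes called was 1217 with the length index (3 members), 10 with a pseudocount of 0.5, 7 with a mean of at least 5 CPM and 7 with equal library medians, with 0 members in the last 3. Voom called 0. With each library left out, medians ranged over -0.29 to 0.10 for all members, -0.26 to 0.023 for complex II, -0.37 to 0.094 for complex III, -0.32 to 0.11 for complex IV, -0.38 to 0.14 for complex V and -0.041 to 0.16 for the assembly factors. COX20 kept its direction in every alternative run, -0.73 to -0.54 with a library left out.

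Without low library 2 the sign of the log2 difference turned for 20 of 54 members, and with the length index for 10. Among the 27 members named by the rule, those whose sign turned with any library left out ranged as follows: SDHA -0.061 to 0.060, SDHB -0.28 to 0.019, SDHC -0.24 to 0.11, CYC1 -0.065 to 0.080, UQCRC1 -0.070 to 0.11, UQCRQ -0.37 to 0.38, COX4I1 -0.30 to 0.23, COX5A -0.063 to 0.60, COX6B2 -0.45 to 0.25, COX7A2 -0.33 to 0.18, COX7A2L -0.17 to 0.057, COX7B -0.44 to 0.13, COX7B2 -0.070 to 0.29, ATP5G1 -0.48 to 0.069, ATP5G2 -0.30 to 0.20, ATP5G3 -0.38 to 0.22, COX17 -0.11 to 0.65. Of the same 27, the sign turned with the length index for ATP5G2 (-0.053), ATP5G3 (-0.074), COX4I1 (-0.049) and CYC1 (-0.011), and with equal library medians for COX6B2 (0.0094). The cause was not tested.

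With the replicate number as a block, 0 genes and 0 members were called, and 797 genes passed an unadjusted p of 0.05, against 1142 without it. Same-numbered libraries did not deviate together (r = 0.12, -0.26 and -0.31 over genes), so the numbers were not taken as pairs. The planned edgeR and DESeq2 fits and an index from protein lengths were not run. Members at a few CPM (COX7A1, COX7B2, COX18) rest on 12 to 116 reads per library, and the reads in the deposited table set that limit.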
